A study of Mus musculus with 9 samples.

Results

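The genes Serpina1a, Serpina1b, Serpina1c, Serpina1d and Serpina1e encode the mouse forms of alpha-1 antitrypsin. They were taken from the gene table by symbol and are 5 of its 33211 genes. All 5 were expressed highly enough to be among the 14220 genes tested. The liver libraries came from male wild-type C57BL/6 mice (C57BL6/J in the study's methods), a common inbred line, whose age at the start of feeding was 8 weeks per the study's methods, and which ate a high-fat diet (HFD) for 7 weeks. In the HFDfre group (n = 5) the opened diet had been kept in a freezer, and in the HFDfri group (n = 4) in a fridge. Both groups ate the HFD, so the comparison is between 2 ways of storing it, with no group on another diet. Nothing in the labels says which animal each library came from, so p-values measure only the spread between these libraries, which may be partly technical.

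The family was taken up because Serpina1e stood out among all genes by how much higher it was in HFDfri. Its difference between the groups therefore chose the family, and the differences of all 5 paralogs in that comparison are given here as a description, with no test. Alpha-1 antitrypsin is a serine protease inhibitor (serpin) that hepatocytes secrete into plasma in large amounts. It is known above all as the inhibitor of neutrophil elastase: the protease cuts an exposed loop of the serpin, the reactive centre loop near its C-terminal end, and is trapped in the process. Humans have a single functional gene, whereas mice carry a row of tandem copies whose loops differ, so that the copies are known to differ in the proteases they bind.

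The 5 genes lie on the minus strand of chromosome 12 (GRCm38, GENCODE M21) within 230.8 kb, from 103728156 to 103958975, and all are protein-coding. Serpina1e (ENSMUSG00000072849, 103946931 to 103958975) comes first in the direction of transcription. It is followed by Serpina1c (ENSMUSG00000079015, 103894926 to 103904887), Serpina1a (ENSMUSG00000066366, 103853589 to 103863562), Serpina1d (ENSMUSG00000071177, 103763594 to 103773592) and Serpina1b (ENSMUSG00000071178, 103728156 to 103830373). The gene model of Serpina1b spans the whole of Serpina1d on the same strand and overlaps the pseudogenes Gm17042, Gm17043 and Gm8893 on that strand. Serpina1c overlaps B430119L08Rik on the opposite strand. The counts of Serpina1b, Serpina1c and Serpina1d are therefore less certain. Serpina1a and Serpina1e overlap no other annotated gene.

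The coding sequences were close to identical. Serpina1e shared between 96.3% and 96.5% of its aligned bases with each of the other paralogs, and Serpina1a and Serpina1c shared 98.5%. The differences were unevenly placed. Over all windows of 60 aligned bases the median number of variable positions was 4, and the most variable window without a gap held 18. It covers bases 1101 to 1160 of the 1239-base coding sequence of Serpina1e (not counting the stop codon), that is, a stretch near its 3′ end. This window is printed because it carries most densely the letters that tell the copies apart; capitals mark bases that differ from Serpina1e, which is given in lower case.
Serpina1e: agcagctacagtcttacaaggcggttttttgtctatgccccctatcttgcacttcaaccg
Serpina1a: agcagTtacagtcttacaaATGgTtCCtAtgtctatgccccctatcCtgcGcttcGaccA
Serpina1b: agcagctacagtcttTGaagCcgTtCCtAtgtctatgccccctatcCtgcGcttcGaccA
Serpina1c: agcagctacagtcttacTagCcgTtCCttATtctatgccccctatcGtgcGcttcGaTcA
Serpina1d: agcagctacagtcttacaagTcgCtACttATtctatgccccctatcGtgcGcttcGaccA
In this window Serpina1d differed from Serpina1e at 10 positions, Serpina1b at 11, and Serpina1a and Serpina1c at 12 each. It was chosen for its variability, so these counts describe it only.

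How far a read can be assigned to 1 copy follows from these sequences. The study's methods give reads of 150 bases. Of all 150-base stretches of the Serpina1e transcript, 92.4% occurred in no transcript of another gene. For Serpina1b the value was 78.8%, for Serpina1d 76.7%, for Serpina1a 59.3% and for Serpina1c 40.3%. Serpina1e was thus the paralog most easily told from the others, and Serpina1c the least. How reads that match several copies were counted is not stated, so the split among Serpina1a to Serpina1d in particular is uncertain. The sum of the 5 does not depend on how shared reads were divided among them, but does on whether they were kept. It also depends on reads shared outside the family. Serpina1c shared 150-base stretches with 2 genes outside it, and each other paralog with 1.

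Part of the promoters was also alike. A stretch of 92 bases that aligns among the 5 promoters (RefSeq, GRCm38.p6, minus strand) is printed because it shows how little they differ there. The levels of the genes differed several-fold. This stretch was cut around a run of letters that all 5 share, so its likeness describes it only. It ends 63 bases before the annotated start of Serpina1e and 1 to 12 bases before those of the others, whose annotated starts lie closer to it. These are RefSeq starts; those of Serpina1e and Serpina1b lie inside the longer GENCODE spans given above. Capitals again mark bases that differ from Serpina1e.
Serpina1e, chr12:103956960-103957051: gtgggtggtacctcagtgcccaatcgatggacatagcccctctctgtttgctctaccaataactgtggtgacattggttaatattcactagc
Serpina1a, chr12:103863625-103863716: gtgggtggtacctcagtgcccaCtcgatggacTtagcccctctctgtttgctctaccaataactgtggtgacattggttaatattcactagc
Serpina1b, chr12:103738200-103738291: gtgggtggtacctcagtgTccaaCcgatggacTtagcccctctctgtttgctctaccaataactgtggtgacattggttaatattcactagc
Serpina1c, chr12:103904962-103905053: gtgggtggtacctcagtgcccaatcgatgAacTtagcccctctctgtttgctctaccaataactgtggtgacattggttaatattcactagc
Serpina1d, chr12:103773634-103773725: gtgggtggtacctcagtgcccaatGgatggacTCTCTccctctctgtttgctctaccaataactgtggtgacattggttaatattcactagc
Serpina1a and Serpina1c differed from Serpina1e at 2 of these positions, Serpina1b at 3 and Serpina1d at 6. Across the full windows of 300 bases, from 250 before to 50 after the annotated start, the letters TTCNNNGAA, the motif type bound by STAT5, were searched on both strands. They were found in 0 of the 5 windows and in 8.3% of 32851 mouse promoters. A match or its lack describes these letters only. Within the same windows the longest run shared with Serpina1e was 63 bases for Serpina1a, 75 for Serpina1c, 115 for Serpina1d and 119 for Serpina1b.

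The libraries held between 58614917 and 69353439 counts. Serpina1e had between 55360 and 683553 counts per library, so counting error was small beside the differences described. Hepatocyte markers (Alb, Ttr, Apoa1 and 7 others) together made up between 105266 and 112886 CPM (counts scaled to a common library size, after TMM normalization in edgeR) in HFDfre and between 96345 and 120209 in HFDfri. The library HFDfri 1 stood apart. Its mean log2 CPM over the hepatocyte markers was 11.95, against 12.29 to 12.32 in the other HFDfri libraries and 12.07 to 12.18 in HFDfre. Yet its summed CPM of the same markers, at 120209, was the highest of all libraries, so the 2 measures differ in direction. Mitochondrial transcripts took 11.4% to 19.8% of the counts in HFDfre and 8.93% to 13.6% in HFDfri; their part in the results was not tested. Values without HFDfri 1 are therefore given beside many of the results, though not for every gene named. Of 52 tested markers of hepatocytes and of 7 other cell or tissue types, 0 passed an adjusted p of 0.05 by edgeR, 8 had an unadjusted p under 0.05, and 3 passed by DESeq2. Over all tested genes these shares were 1.05%, 21.2% and 7.51%. The summed pancreas markers did not overlap between the groups, at 10.3 to 17.1 CPM in HFDfre and 17.5 to 25.6 CPM in HFDfri. Among all tested genes, 4.02% did not overlap in this direction. The sum was nearly all Cela1, at 13.6 ± 3.19 CPM in HFDfre and 19.7 ± 3.84 CPM in HFDfri (SD). Cela2a was at 0.289 ± 0.126 and 0.293 ± 0.0215 CPM, and Prss2, Cpa1 and Pnlip were at 0 in every library. The part of these markers in the result was not tested. In bulk liver, fewer cells of a type and less RNA per cell cannot be told apart.

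Serpina1e was higher in every HFDfri library than in any HFDfre library. Its level in HFDfre was 2142, 1832, 1444, 777 and 1309 CPM in libraries 1 to 5. In HFDfri it was 12171, 3641, 5008 and 4782 CPM in libraries 1 to 4. HFDfri 1 stood far above every other library, and HFDfre 4 held the least. HFDfre averaged 1501 ± 521 CPM (SD, n = 5) and HFDfri averaged 6400.4 ± 3893 CPM (SD, n = 4), a ratio of 4.26. The fitted log2 fold change was 2.09 ± 0.36 (SE). By counts alone it was between the 69th and the 143rd most abundant gene in HFDfre and between the 12th and the 39th in HFDfri. Its variation within groups was also wide, with a coefficient of variation of 34.7% in HFDfre and 60.8% in HFDfri, whereas those of the other paralogs lay between 4.53% and 10.6%.

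Serpina1a and Serpina1d were moderately higher in HFDfri, without overlap between the groups. Serpina1a was at 4355, 4395, 3887, 3765 and 4197 CPM in HFDfre and at 5642, 4905, 4823 and 4682 CPM in HFDfri. Serpina1d was at 2573, 2594, 2190.4, 2233 and 2404 CPM in HFDfre and at 2734, 3247, 2949 and 2854 CPM in HFDfri. The highest Serpina1a level was in HFDfri 1 and the highest Serpina1d level in HFDfri 2. Their log2 fold changes were 0.28 ± 0.11 and 0.30 ± 0.10 (SE), that is, ratios of the means of 1.22 and 1.23. Without HFDfri 1 the log2 fold changes were 0.21 and 0.32.

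Serpina1b and Serpina1c overlapped between the groups. Serpina1b was at 5845, 5669, 5207, 5362 and 5543 CPM in HFDfre and at 6959, 6195, 5513 and 5709 CPM in HFDfri. Serpina1c was at 6724, 6566, 5953, 5296 and 6917 CPM in HFDfre and at 7277, 6987, 6585 and 6617 CPM in HFDfri. For both, the highest level was in HFDfri 1. Their log2 fold changes were 0.14 ± 0.11 and 0.13 ± 0.11 (SE), about the size of their standard errors. Without HFDfri 1 they were 0.06 and 0.09, and that of Serpina1c was 0.07 without HFDfre 4.

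The groups did not overlap for 3 of the 5 paralogs, all higher in HFDfri, where that held for 4.02% of all tested genes in this direction and for 3.66% in the other. The median log2 fold change was 0.28 over the family and -0.0068 over all tested genes. Because the family was chosen from this comparison, these values are no evidence of their own.

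**Figure D1:**
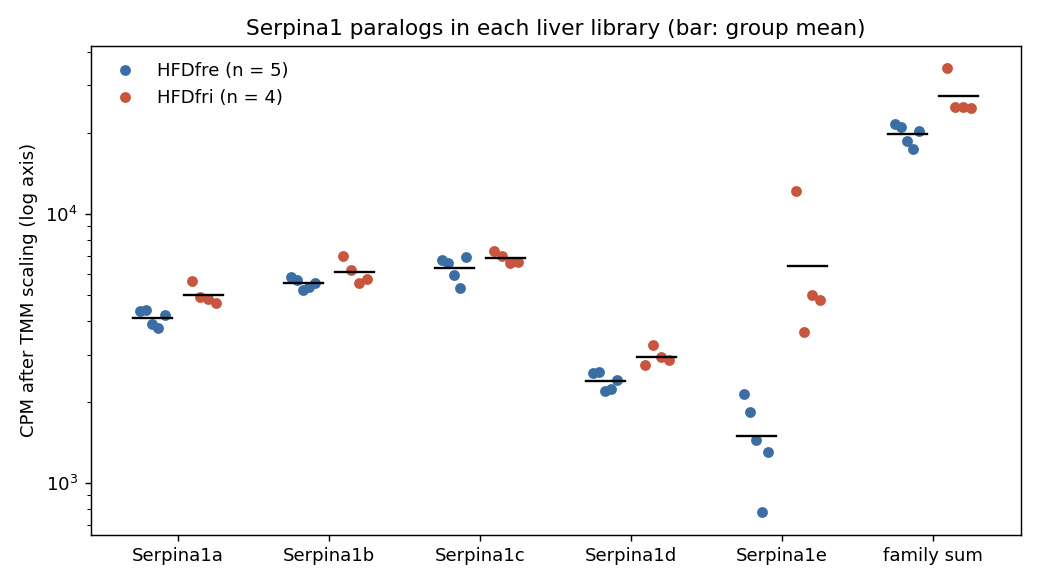
Levels of the 5 Serpina1 paralogs and of their sum in each liver library, in CPM after TMM scaling on a log axis; points are libraries (HFDfre blue, n = 5; HFDfri red, n = 4) and bars are group means. Serpina1e ran from 777 to 2142 CPM in HFDfre and from 3641 to 12171 CPM in HFDfri, while the groups of Serpina1b and Serpina1c overlapped.

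The summed family was higher in HFDfri. The 5 genes together were at 21639, 21056, 18681, 17434 and 20370.2 CPM in HFDfre and at 34784, 24975, 24879 and 24645 CPM in HFDfri. Every HFDfri library lay above every HFDfre library, and HFDfri 1 lay far above the other HFDfri libraries, which were close to each other. The family took between 1.82% and 2.12% of all counts in HFDfre and between 2.56% and 3.16% in HFDfri. HFDfre averaged 19836 ± 1741 CPM (SD, n = 5) and HFDfri averaged 27320.3 ± 4978 CPM (SD, n = 4). With the 5 rows replaced by their sum, the log2 fold change was 0.46 ± 0.14 (SE).

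Serpina1e made up most of that difference. Of the gap of 7484 CPM between the group means of the sum, Serpina1e held 65.5%, Serpina1a 11.9%, and the others between 7.31% and 7.69% each. The other 4 paralogs summed to between 16657 and 19497 CPM in HFDfre and between 19863 and 22613 CPM in HFDfri, a ratio of the means of 1.14. The higher Serpina1e count was therefore not mirrored by a lower count of its copies.

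The make-up of the family is free of the scaling between libraries. Serpina1e held 9.90%, 8.70%, 7.73%, 4.46% and 6.43% of the family's counts in HFDfre and 35.0%, 14.6%, 20.1% and 19.4% in HFDfri. The lowest share in HFDfri was above the highest in HFDfre. HFDfre averaged 7.44% ± 2.10 (SD, n = 5) and HFDfri averaged 22.3% ± 8.83 (SD, n = 4). The shares of Serpina1a (20.8% and 18.6%), Serpina1b (28.0% and 22.5%) and Serpina1c (31.7% and 25.6%) were each lower in HFDfri without overlap. That of Serpina1d, at 12.1% ± 0.454 and 11.1% ± 2.23, overlapped. Since shares add up to the whole, those decreases come with the increase of Serpina1e and do not mean lower levels.

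**Figure D2:**
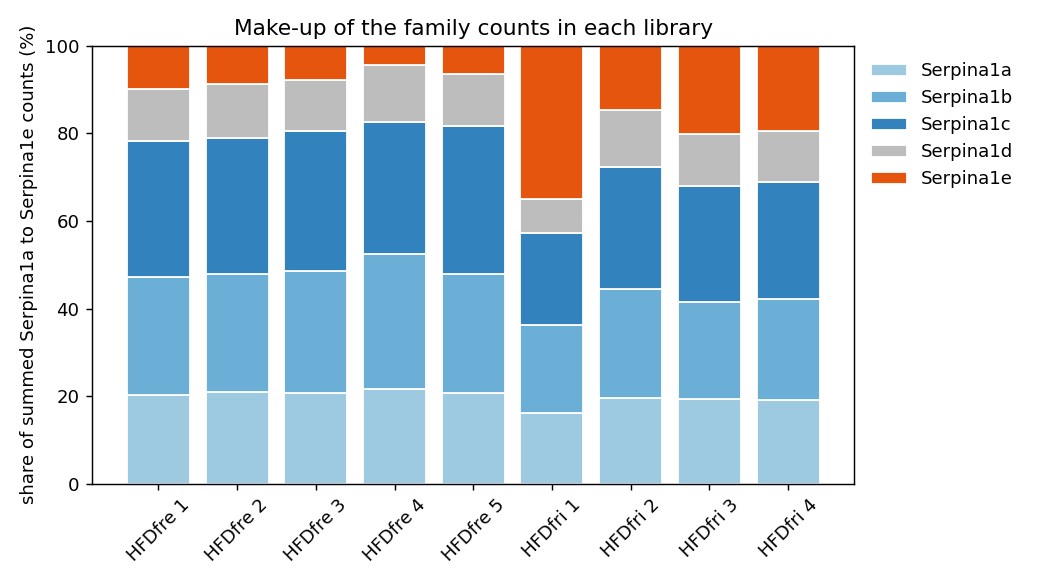
Share of each paralog in the summed Serpina1a to Serpina1e counts of each library, in percent; each stacked bar is 1 library. The Serpina1e segment, at the top, ran from 4.46% to 9.90% in HFDfre and from 14.6% to 35.0% in HFDfri.

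On a log2 scale, the count of Serpina1e relative to the summed count of the other 4 averaged -3.69 ± 0.480 over HFDfre (SD, n = 5), against -1.87 ± 0.699 over HFDfri (SD, n = 4). The difference of 1.82 was close to the fitted log2 fold change of Serpina1e itself. Against each of the other paralogs singly, it was 1.71 for Serpina1d, 1.73 for Serpina1a, 1.87 for Serpina1b and 1.88 for Serpina1c.

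To compare paralogs with each other, levels were divided by transcript length, which ran from 1361 bases for Serpina1c to 1581 for Serpina1a. In HFDfre the order of the levels in CPM per kb was the same in all 5 libraries. Serpina1c was at 4622 ± 487 CPM per kb, Serpina1b at 3964 ± 180, Serpina1a at 2606 ± 178, Serpina1d at 1721 ± 134 and Serpina1e at 953 ± 330 (SD, n = 5). Of the neighbours in this order, only Serpina1c and Serpina1b overlapped in their ranges across libraries. In HFDfri the place of Serpina1e changed from library to library. It came first in HFDfri 1 at 7728 CPM per kb, the third in HFDfri 3 and HFDfri 4, and last in HFDfri 2 at 2312 CPM per kb, while Serpina1c, Serpina1b, Serpina1a and Serpina1d kept their order among themselves in every library. The range of Serpina1e in HFDfri, from 2312 to 7728 CPM per kb, overlapped those of all its paralogs.

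Without HFDfri 1, Serpina1e was at 4477 ± 733 CPM in HFDfri (SD, n = 3), a ratio of the means of 2.98 and a log2 fold change of 1.57. The family sum was then at 24833 ± 169.8 CPM, with a log2 fold change of 0.31, and Serpina1e held 59.6% of the gap between the groups. The share of Serpina1e in the family was 18.04% ± 3.02. A ribosomal RNA-like locus, Gm26924, took up to 11.1% of the counts of a library. Within the 5 libraries where it took under 3% (HFDfre 3 and 5, HFDfri 1, 2 and 4), the log2 fold change of Serpina1e was 2.32 and that of the sum 0.52.

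Genes with a pattern like that of Serpina1e were looked for among the 10118 genes whose mean log2 CPM reached 1. Over the 9 libraries the most similar was C6, a component of the complement membrane attack complex, with a Pearson correlation of log2 CPM of 0.997 and the same order of libraries as Serpina1e throughout. C6 was at 125, 111, 107, 68.1 and 99.5 CPM in HFDfre and at 333, 163, 206 and 201 CPM in HFDfri. It was lowest in HFDfre 4 and highest in HFDfri 1, as was Serpina1e. Next came Selenbp2, a selenium-binding protein (0.977), 3110082I17Rik (0.973), Serpina3k, another secreted liver serpin (0.969), and C8a, a further component of the attack complex (0.966). These correlations include the difference between the groups, and the libraries share their preparation and scaling. Without HFDfri 1 the 5 values lay between 0.942 and 0.994.

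When the group means were removed, C6 again came first, at 0.989, and at 0.979 without HFDfri 1. It was followed by Arhgap26, a GTPase-activating protein (0.957), Tram1, which helps nascent proteins cross the membrane of the endoplasmic reticulum (0.953), Ang, a secreted ribonuclease (0.952), and Pmm2, an enzyme that makes sugar precursors for N-glycosylation (0.951). Thus the closeness of C6 held within the groups as well as between them. The genes named here were picked as the highest of the 10118 compared, over only 9 libraries, so their correlations are high partly by that choice. Within the family, the correlation with Serpina1e of these deviations was 0.872 for Serpina1a, 0.684 for Serpina1b and 0.65 for Serpina1c, but -0.02 for Serpina1d.

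**Figure D3:**
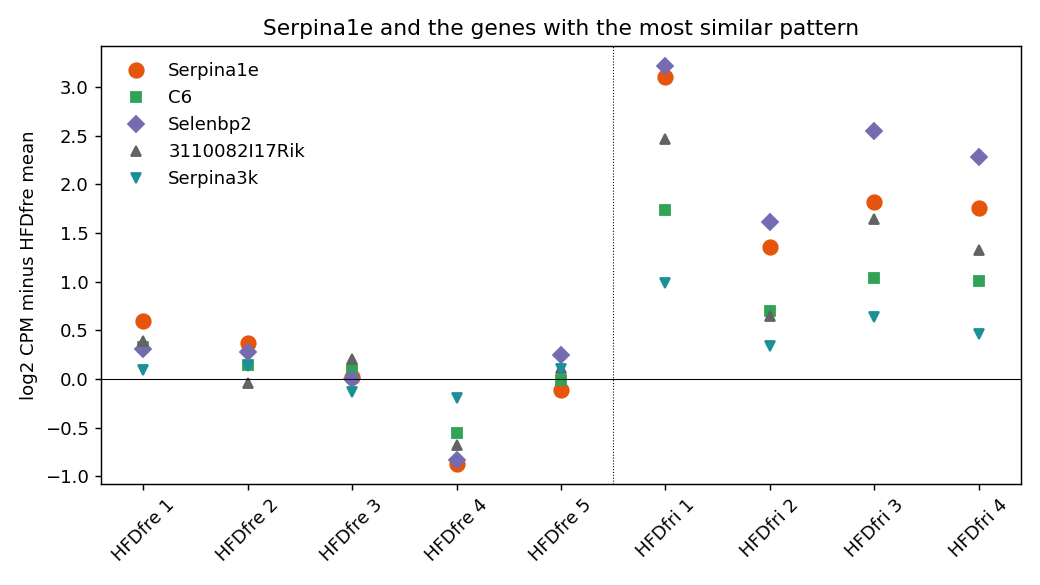
Serpina1e and 4 of the genes most like it over the 9 libraries, as log2 CPM minus the mean log2 CPM of the HFDfre libraries; the dotted line separates HFDfre (left) from HFDfri (right). All 5 genes were lowest in HFDfre 4 and highest in HFDfri 1, and the log2 fold changes were 2.09 for Serpina1e, 1.14 for C6 and 2.47 for Selenbp2.

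The other clade A serpins, relatives of alpha-1 antitrypsin of which most lie in the same stretch of chromosome 12, were compared with the family. As background for this and the following lists, edgeR called 0.499% of all tested genes higher and 0.556% lower, 1.05% in all, and 21.2% had an unadjusted p under 0.05; DESeq2 called 7.51% in all, and edgeR without HFDfri 1 7.65%. Of 21 listed, 16 were tested, and 1 fell and 0 rose at an adjusted p of 0.05 by edgeR. The median log2 fold change was 0.61, and 0.35 without HFDfri 1. The gene that fell was Serpina6, the plasma carrier of corticosteroids, from 232 ± 34.3 to 153 ± 9.29 CPM (log2 fold change -0.60 ± 0.12, edgeR adjusted p = 0.0396). By DESeq2 9 of the 16 passed, and without HFDfri 1 4 passed by edgeR. By edgeR 9 had an unadjusted p under 0.05, 6 with a log2 fold change above 0 and 3 below. The largest log2 fold change was that of Serpina3c, 2.22 ± 1.23, at 0.105 and 0.501 CPM (edgeR adjusted p = 0.326). Serpina3n was at 284 ± 54.9 and 629 ± 365 CPM without overlap (log2 fold change 1.15 ± 0.29, edgeR adjusted p = 0.0758). Its highest level was in HFDfri 1, at 1162 CPM. Serpina3k was at 7975 ± 820 CPM in HFDfre and 12257 ± 2487 CPM in HFDfri, without overlap (log2 fold change 0.62 ± 0.15, edgeR adjusted p = 0.0627). The gene model of Serpina3m spans Serpina3k on the same strand, so the 2 counts may not be separate. Serpina11, the nearest tested clade A neighbour upstream of Serpina1e, was at 64.9 ± 11.4 and 78.6 ± 15.3 CPM (log2 fold change 0.28 ± 0.15, edgeR adjusted p = 0.312). Its symbol labels 2 rows of the gene table, and only the row with the larger total was used. Serpina1f, on the far side of Serpina1b, was at 0 counts in all libraries.

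**Figure D4:**
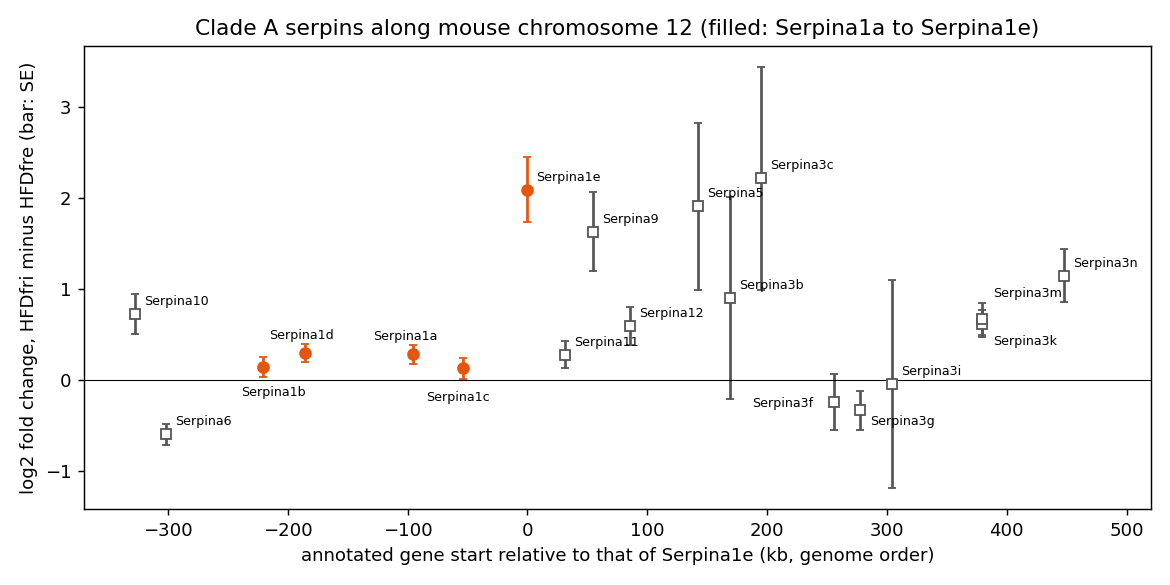
Log2 fold change of each tested clade A serpin on chromosome 12 (HFDfri minus HFDfre, bars are SE) against the distance of its annotated start from that of Serpina1e in kb. Serpina1e, at 2.09, stands above the 4 other Serpina1 genes, at 0.13 to 0.30, and the open squares are clade A serpins outside the family. Of these, Serpina3c lies above Serpina1e, at 2.22, but was barely detected (0.105 CPM in HFDfre and 0.501 CPM in HFDfri).

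Genes that bear on alpha-1 antitrypsin were read from lists drawn up for this purpose. Of its target proteases in neutrophils, Elane, the elastase, was at 0.197 ± 0.106 CPM in HFDfre and 0.168 ± 0.233 CPM in HFDfri, Prtn3 was at 0.428 ± 0.196 and 1.56 ± 1.64 CPM, and Ctsg was at 0 in all libraries. Of the 2 tested, 0 passed by edgeR or by DESeq2, with 1 at an unadjusted p under 0.05 by edgeR. The RNA of these neutrophil proteases was thus barely detected in these libraries, and their protein was not measured.

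Of 13 hepatocyte transcription factors, 1 rose. This was Stat3, which carries the signal of interleukin 6 to acute phase genes, from 41.6 ± 4.45 to 78.03 ± 20.8 CPM (log2 fold change 0.91 ± 0.16, edgeR adjusted p = 0.0322). Hnf4a, a master regulator of hepatocyte genes, was at 327 ± 22.3 and 449.9 ± 57.2 CPM without overlap, but did not pass (log2 fold change 0.46 ± 0.10, edgeR adjusted p = 0.0566). Cebpa, another hepatocyte factor, was at 302 ± 15.1 and 271 ± 45.1 CPM (log2 fold change -0.16 ± 0.11, edgeR adjusted p = 0.45). By DESeq2 4 of the 13 passed, and without HFDfri 1 6 passed by edgeR. By edgeR 7 had an unadjusted p under 0.05, 5 with a log2 fold change above 0 and 2 below.

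Of 22 acute phase proteins, the group of plasma proteins to which human alpha-1 antitrypsin belongs, 1 rose. Fga, the alpha chain of fibrinogen, was at 1862 ± 255 CPM in HFDfre and 3672 ± 873 CPM in HFDfri (log2 fold change 0.98 ± 0.16, edgeR adjusted p = 0.0293). The list had a median log2 fold change of 0.54, which was 0.06 without HFDfri 1. By DESeq2 7 of the 22 passed, and without HFDfri 1 4 passed by edgeR. By edgeR 10 had an unadjusted p under 0.05, all with a log2 fold change above 0. Of 13 tested serpins outside clade A, 1 rose, Serpine2, an inhibitor of thrombin and plasminogen activators, from 7.63 ± 1.93 to 16.2 ± 3.30 CPM (log2 fold change 1.09 ± 0.20, edgeR adjusted p = 0.0354), and 2 passed by DESeq2. In this list 4 had an unadjusted p under 0.05 by edgeR, 3 with a log2 fold change above 0 and 1 below. Of 24 genes that fold, export or dispose of secreted glycoproteins, 0 passed by edgeR, 9 had an unadjusted p under 0.05, all with a log2 fold change above 0, and 2 passed by DESeq2. Syvn1 and Derl3, both of the disposal pathway, had the largest differences of that list. Syvn1 was at 42.9 ± 4.02 and 97.8 ± 70.9 CPM (log2 fold change 1.19 ± 0.37, edgeR adjusted p = 0.116), and Derl3 at 4.20 ± 4.23 and 12.1 ± 13.7 CPM (log2 fold change 1.52 ± 0.72, edgeR adjusted p = 0.248). The value of Syvn1 was 0.63 without HFDfri 3 and that of Derl3 0.35 without HFDfri 1.

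Genes whose liver expression differs between male and female mice were read beside the family. C6 and Selenbp2, the genes most like Serpina1e over the 9 libraries, are among them. The next in that order, 3110082I17Rik, Serpina3k and C8a, are not on the lists used here. A link between Serpina1e and these lists was not tested. In mice the difference between the sexes depends on the pattern of growth hormone release, which acts through STAT5. Of 18 genes known to be higher in males, 5 rose and 0 fell, where 0.499% of all tested genes were called higher. They were Selenbp2, Egfr, Cyp7b1, C6 and Susd4. Selenbp2 rose from 225 ± 61.02 to 1246 ± 566 CPM (log2 fold change 2.47 ± 0.30, edgeR adjusted p = 0.0117). Cyp7b1, an oxysterol hydroxylase, rose from 80.003 ± 14.5 to 228 ± 95.9 CPM (log2 fold change 1.51 ± 0.25, edgeR adjusted p = 0.0293). For Egfr, the epidermal growth factor receptor, C6 and Susd4, a complement inhibitor, the values on the log2 scale were 1.85 ± 0.33, 1.14 ± 0.21 and 0.89 ± 0.17, with edgeR adjusted p of 0.0354, 0.0354 and 0.0358. The median of the list was 0.78, and 0.68 without HFDfri 1. By DESeq2 8 of the 18 passed, and without HFDfri 1 7 passed by edgeR. By edgeR 12 had an unadjusted p under 0.05, all with a log2 fold change above 0.

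Of 15 tested genes known to be higher in females, 3 fell and 0 rose, where 0.556% of all tested genes were called lower. These were Acot3, an acyl-CoA thioesterase (log2 fold change -2.45 ± 0.30), Cyp4a14, a fatty acid hydroxylase (-1.63 ± 0.33), and Vldlr, a lipoprotein receptor (-1.56 ± 0.31), with edgeR adjusted p of 0.0117, 0.0425 and 0.0396. By DESeq2 7 of the 15 passed, and without HFDfri 1 6 passed by edgeR. By edgeR 9 had an unadjusted p under 0.05, all with a log2 fold change below 0. Selenbp2, Acot3 and Cyp4a14 have close paralogs of their own. Of 9 genes of growth hormone signalling, 0 passed by edgeR or by DESeq2, and 0 had an unadjusted p under 0.05 by edgeR. Stat5b was at 28.1 ± 1.41 and 31.5 ± 1.95 CPM (log2 fold change 0.16 ± 0.08, edgeR adjusted p = 0.283). Socs2 and Cish, both induced by STAT5, varied widely between libraries. Socs2 had a difference of 0.91 ± 0.71 on the log2 scale, which was -0.45 without HFDfri 1, and Cish one of -0.87 ± 0.47, with edgeR adjusted p of 0.495 and 0.312. Both lists of genes that differ between the sexes were drawn up with earlier results of these libraries known, among them those of Selenbp2, Egfr, Acot3, Cyp4a14 and Vldlr, so their counts are not independent evidence. All 12 list genes called here lost the call in at least 1 of 19 other ways of processing: Acot3 kept it in 18, Selenbp2 in 17 and the others in 6 to 11. Without HFDfre 3, 2 of the list genes passed, and without HFDfri 1, 29.

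**Figure D5:**
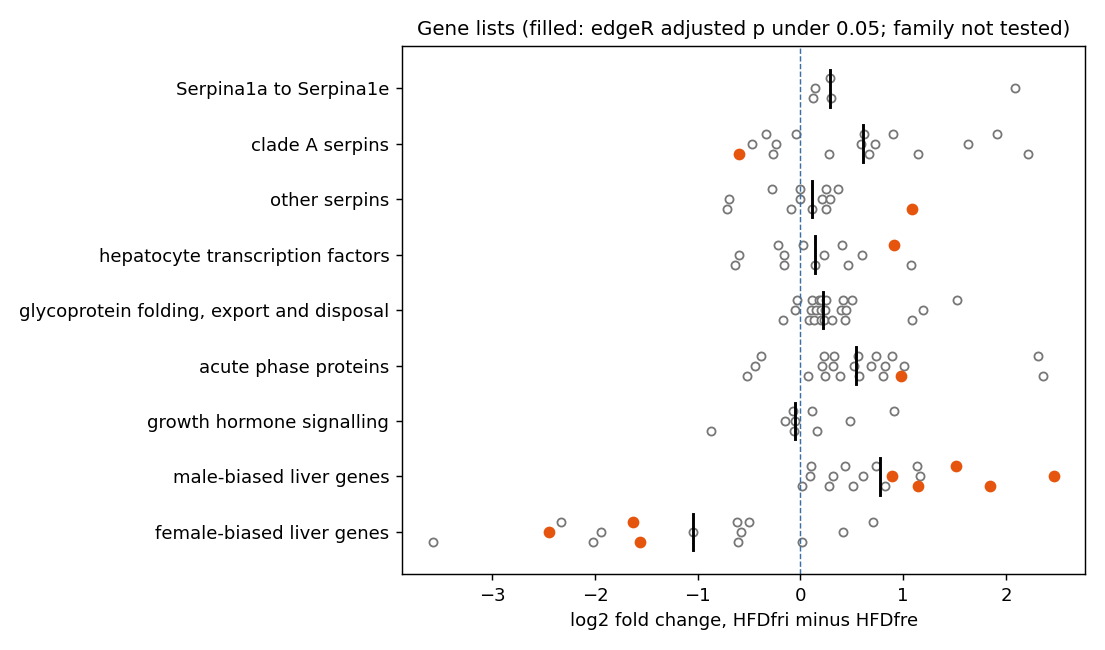
Log2 fold change (HFDfri minus HFDfre) of each tested gene of the family and of 8 lists (the target proteases are not drawn); filled points outside the family passed an edgeR adjusted p of 0.05, black bars are list medians, and the dashed line is the median of all tested genes. The top row has no filled points because the family, fitted with all genes, was chosen from this comparison and its calls are not marked. Serpina1e lies there at 2.09. On the right 5 genes of the male-biased list are filled, and on the left 3 of the female-biased list. Moxd1 is not drawn because it was at 0 in every HFDfre library.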

How the data were processed

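Liver RNA was extracted with TRIzol and sequenced as paired-end reads. The sources differ on the kit (NEBNext Ultra per the labels, KAPA RNA HyperPrep per the methods). The study's methods name HISAT2, and the submitters' processing notes list HISAT2, StringTie and mm10; their versions, the gene annotation and strand handling are not given in the sources used here. The deposited table was read as estimated counts per gene, with no scaling across libraries, rounded to whole numbers before fitting. Columns were assigned through the codes that sample titles carry. Coordinates and transcripts are from GENCODE M21 (GRCm38), which holds 96.5% of the table's gene identifiers, and promoters are from RefSeq (all 5 members matched).

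Genes were kept with edgeR's filterByExpr. HFDfri was compared with HFDfre by the quasi-likelihood test of edgeR 4.0.16 (R 4.3.3) with TMM, no covariate and Benjamini-Hochberg adjustment over all tested genes, at 0.05. The SE of a log2 fold change is its size over the square root of F. CPM are counts over the TMM-scaled library size of the tested genes; log2 CPM used a prior count of 2. Correlations are descriptions. Coding sequences were aligned with MAFFT 7.526. Alternatives were DESeq2 1.42.0 (the study's tool), limma-voom 3.58.1, other scalings and filters, robust dispersion, the replicate block, a covariate and a subset for Gm26924, and leaving out each library. Library totals ran from 58614917 to 69353439 counts.

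The members, the gene lists and the alternatives were chosen with earlier results of these data known. The genes named are the 5 members, list genes past the threshold or else the 2 with the largest change of a list, 5 genes fixed by name (Hnf4a, Cebpa, Stat5b, Serpina3k and Elane; 1 more is not reported here), and the 5 genes most like Serpina1e by each of 2 correlations. Serpina11, Serpina1f, Serpina3c, Serpina3n, Ctsg, Moxd1, Gm26924, Cela1 and Cela2a were named outside that rule after their values were seen.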

Additional observations from a re-analysis of the deposited data

Results flagged for a closer look

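A search for single libraries lying apart from the rest of their group covered 92 sets of values and found 7, against 4.6 that chance gives, since chance picks out about 1 in 20 sets. The gap named below is the distance to the nearest other library divided by the range of that group.

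Among the Serpina1 genes, the log2 CPM of the family sum was 15.09 in HFDfri 1, while the rest of HFDfri lay at 14.59 to 14.61 (gap 0.961). In that library the mean log2 CPM of the hepatocyte markers was low, at 11.95 against 12.29 to 12.32 (gap 0.921), although their summed CPM, at 120209, was the highest of all libraries. Cebpa was high there, with a log2 CPM of 8.40 against 7.92 to 8.0002 (gap 0.84), and so was the mean log2 CPM of the pancreas markers, at 1.54 against 1.24 to 1.28 (gap 0.86). The part of these measures in the Serpina1 values of HFDfri 1 was not tested.

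For Selenbp2, HFDfre 4, the library with the least Serpina1e, had a log2 CPM of 6.92, and the rest of HFDfre lay at 7.76 to 8.06 (gap 0.732). For Serpina6, HFDfri 2 had 7.38 and the rest of HFDfri 7.20 to 7.22 (gap 0.887). For the lymphocyte markers, HFDfre 3 had a mean log2 CPM of -0.76, with -1.97 to -1.65 in the rest of HFDfre (gap 0.736).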

How the results depend on the processing

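The log2 fold changes of the 5 paralogs and of their sum were above 0 in all 19 alternatives and moved by less than the spread between libraries, as did the ratio of Serpina1e to its paralogs in its 16. With 1 library left out, Serpina1e ranged from 1.57 to 2.29, the sum from 0.313 to 0.508 and the ratio from 1.49 to 2.04. The count of called genes depended on the processing. Of all genes 150 were called. DESeq2 called 1068, scaling by library totals 76, leaving out the filter 72, adding the Gm26924 share as a covariate 93, and the libraries low in that locus alone gave 2 (1401 unadjusted). The count ran from 6 (without HFDfre 3 or HFDfre 5) to 1106 (without HFDfri 1) with 1 library left out. The 12 called list genes became 39 with DESeq2, 1 within the libraries low in Gm26924, and from 2 to 29 with 1 library left out. With the replicate block, 0 genes were called, with 2536 at an unadjusted p under 0.05, and 0 list genes; the replicate numbers do not pair the libraries (correlation of deviations between -0.136 and 0.0813). Library totals moved the median log2 fold change of all genes from -0.0068 to 0.0514 and the share of higher calls from 71 of 150 to 55 of 76. Elane was at 0.53 within the libraries low in Gm26924 and ran from -1.81 to 0.16 with 1 library left out, above 0 without HFDfre 4 (0.04), HFDfri 2 or HFDfri 3. With 1 library left out Socs2 ran from -0.45 (without HFDfri 1) to 1.29; for all these changes the cause was not tested.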
